A study of Mus musculus with 29 samples.

Results

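H3K27me3 peak lists of 4 control and 4 dcKO pallia of mouse embryos at E17.5 were compared, chosen by the names of the immunoprecipitated samples, in which the letter C stands for control and K for dcKO. They make up 8 of the 29 samples of the study, and hold 140795 peaks, 60332 in control and 80463 in dcKO libraries. Controls 1 to 4 had 28659, 13326, 9993 and 8354 peaks, and dcKO 1 to 4 had 18408, 9381, 6674 and 46000. The means were 15083 ± 9284 (SD, n = 4) and 20116 ± 17971 (SD, n = 4; two-sided exact permutation test, p = 0.686). The higher dcKO total thus stood on dcKO 4. The dcKO embryos carried both alleles of Baf155 and Baf170 floxed together with hGFAP-Cre, and the controls were littermates with the same Cre and 1 floxed allele of each gene (BAF155 fl/+, BAF170 fl/+), on a C57BL/6J background. The deposited genotype field reads dcKO for all 8 libraries, so the grouping rests on the letters. The hGFAP promoter drives Cre first in the medial pallium and later in its dorsal and lateral parts, so whole pallium also holds cells without recombination. No library had a peak within 2000 bp of a start site of Smarcc1 (BAF155) or Smarcc2 (BAF170), and these lists cannot check the deletion. Each library was called against 1 pooled input of its own genotype, so a difference between genotypes and a difference between the inputs cannot be told apart. The antibody catalogue number in the labels differs from that in the antibody list of the study, and here the mark can be checked only by where its peaks lie. RNA was taken from other E17.5 cortices, 4 WT and 4 dcKO that received vehicle and 4 dcKO that received a Wnt inhibitor. Nothing says from how many litters the libraries came, so the p-values measure the spread between these 8 libraries.

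H3K27me3 is the trimethylated form of a lysine in the tail of histone H3. It is written by the EZH2 subunit of the Polycomb complex PRC2, with EED and SUZ12, and erased by the demethylases KDM6A and KDM6B. It covers the start sites of genes that a cell lineage keeps silent, above all transcription factors of other body regions, and the CpG-rich stretches of DNA at promoters are its usual place. BAF155 and BAF170 are scaffold subunits of the BAF chromatin remodelling complex, which opposes Polycomb at many sites and can bind both demethylases.

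The sequences below are examples of DNA that was marked in 1 genotype and not in the other. For each region, the 150 bases with the most CpG dinucleotides in mm10 are given, with every CpG in capitals. The first group had a peak in all 4 dcKO libraries and in no control library. It begins with the RefSeq promoter of Prmt8 in GRCm38.p6, from 250 bases before the start to 50 after it, which holds the densest window of its region and 44 CpG.
Prmt8 promoter, chr6:127769106-127769405, - strand: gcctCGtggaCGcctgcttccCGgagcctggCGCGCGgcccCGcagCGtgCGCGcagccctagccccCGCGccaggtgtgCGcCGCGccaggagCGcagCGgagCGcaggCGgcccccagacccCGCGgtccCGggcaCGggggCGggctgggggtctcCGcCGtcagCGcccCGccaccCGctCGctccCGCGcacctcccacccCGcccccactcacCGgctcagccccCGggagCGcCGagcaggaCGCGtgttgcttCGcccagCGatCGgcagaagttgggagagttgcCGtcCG
Mast1 and Dnase2a, chr8:84912903-84913052, + strand: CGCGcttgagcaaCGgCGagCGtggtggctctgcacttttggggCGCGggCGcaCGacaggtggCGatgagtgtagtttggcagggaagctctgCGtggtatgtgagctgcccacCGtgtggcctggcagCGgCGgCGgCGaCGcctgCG
snRNA gene Gm25360, chr1:72225919-72226068, + strand: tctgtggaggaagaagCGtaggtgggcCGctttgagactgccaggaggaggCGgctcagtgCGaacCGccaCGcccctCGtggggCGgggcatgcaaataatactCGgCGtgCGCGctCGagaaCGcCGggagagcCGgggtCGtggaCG
near Cops8, chr1:90597999-90598148, + strand: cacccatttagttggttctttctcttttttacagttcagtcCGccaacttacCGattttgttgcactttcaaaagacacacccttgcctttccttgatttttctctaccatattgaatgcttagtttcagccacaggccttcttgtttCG
The second group had a peak in all 4 control libraries and in no dcKO library.
near Slc36a1, chr11:55201399-55201548, + strand: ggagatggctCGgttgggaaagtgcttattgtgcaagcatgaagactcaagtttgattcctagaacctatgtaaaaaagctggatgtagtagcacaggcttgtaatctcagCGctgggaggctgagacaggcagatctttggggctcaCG
Gm15322, chr13:111991066-111991215, + strand: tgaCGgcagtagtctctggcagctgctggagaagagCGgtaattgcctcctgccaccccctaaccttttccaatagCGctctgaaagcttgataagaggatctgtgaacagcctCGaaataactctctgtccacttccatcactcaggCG
intron of Rbms3, chr9:116912217-116912366, + strand: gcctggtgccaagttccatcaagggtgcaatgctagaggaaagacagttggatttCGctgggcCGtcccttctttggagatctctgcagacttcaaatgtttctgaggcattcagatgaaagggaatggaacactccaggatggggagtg
The promoter of Hoxd13, a patterning gene of the limb and posterior body inside a region marked in all 8 libraries, is given for comparison.
Hoxd13 promoter, chr2:74667975-74668274, + strand: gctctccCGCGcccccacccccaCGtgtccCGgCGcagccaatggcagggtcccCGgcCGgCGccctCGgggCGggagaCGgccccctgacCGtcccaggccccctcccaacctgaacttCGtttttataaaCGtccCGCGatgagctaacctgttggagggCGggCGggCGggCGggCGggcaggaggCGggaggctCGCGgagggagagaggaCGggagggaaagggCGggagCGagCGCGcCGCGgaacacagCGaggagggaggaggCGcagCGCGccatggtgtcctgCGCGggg
The windows of the dcKO group shown here held 18, 18 and 3 CpG, with 25 in that of Prmt8, and those of the control group 3, 5 and 2. The dcKO windows near Kcnk9 and at Itgad, which are not shown, held 9 and 6. The Hoxd13 promoter held 37 in 300 bases.

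The libraries differed more by the share of tags left after duplicate removal than by genotype. Control 2, control 4, dcKO 3 and dcKO 4 kept over 30% of their tags and are called the deep class, and control 1, control 3, dcKO 1 and dcKO 2 the shallow class. The libraries nearest to the limit were dcKO 4 with 32.8% and dcKO 2 with 18.0%. Kept tags lay between 8898443 and 28335352 in the deep class and between 2420911 and 3969109 in the shallow class. The median peak was 698 to 1602.5 bp wide in the deep class and 351 to 497 bp in the shallow class. Domains of 10 kb or more numbered 353 to 419 per deep library and 6 to 19 per shallow library. They held on average 27.8% of the covered bases in the deep and 3.22% in the shallow class. The median fold enrichment, which is the pileup over the local background of the input with a pseudocount of 1 on each, lay between 3.49 and 3.98 in the deep and between 4.04 and 4.39 in the shallow class. The local background was lower in the shallow class, with a median of 0.38 to 0.71 tags against 0.99 to 1.36. Peak numbers averaged 10840 in control and 26337 in dcKO in the deep class, and 19326 and 13894.5 in the shallow class. The part of depth in each difference below was not tested, and values are given by class.

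Peak width did not separate the genotypes. The median width was 351, 1021, 394 and 1257.5 bp in controls 1 to 4 and 497, 496, 1602.5 and 698 bp in dcKO 1 to 4. The means were 756 ± 453 bp (SD, n = 4) and 823 ± 528 bp (SD, n = 4), and the two-sided exact permutation test gave p = 0.857. In the deep class the means were 1139 bp in control and 1150 bp in dcKO, and in the shallow class 372.5 and 496.5 bp. Each shallow dcKO library was thus wider than each shallow control library, and the deep libraries of the genotypes overlapped. The dcKO 3 library had the widest median of all and dcKO 4 the narrowest of the deep class.

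The share of peaks of 10 kb or more was 0.056%, 3.12%, 0.060% and 4.55% in controls 1 to 4 and 0.10%, 0.085%, 5.29% and 0.91% in dcKO 1 to 4. It averaged 1.95 ± 2.26% (SD, n = 4) in control and 1.597 ± 2.49% (SD, n = 4) in dcKO (two-sided exact permutation test, p = 1). The number of such domains in deep libraries was 416 and 380 in control and 353 and 419 in dcKO, so the lower share of dcKO 4 stood on its 46000 peaks and not on fewer domains.

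Fold enrichment was alike in level across genotypes. The median was 4.12, 3.54, 4.39 and 3.62 in controls 1 to 4 and 4.36, 4.04, 3.98 and 3.49 in dcKO 1 to 4. The mean of these was 3.92 ± 0.40 (SD, n = 4) and 3.97 ± 0.36 (SD, n = 4), a difference within the spread (two-sided exact permutation test, p = 0.943). It was 3.58 in control and 3.74 in dcKO in the deep class, and 4.25 and 4.20 in the shallow class. The dcKO minus control difference thus had opposite signs in the 2 classes. At the upper end, 5% of the peaks passed 8.97, 5.12, 7.36 and 5.11 in controls 1 to 4 and 11.2, 7.24, 5.70 and 6.87 in dcKO 1 to 4.

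Of the peaks, 18.4%, 30.9%, 16.7% and 39.0% lay within 2000 bp of a protein-coding start site in controls 1 to 4, and 25.2%, 14.5%, 49.6% and 19.5% in dcKO 1 to 4. The means were 26.2 ± 10.6% (SD, n = 4) and 27.2 ± 15.5% (SD, n = 4; two-sided exact permutation test, p = 0.943). The deep class had 35.0% in control and 34.5% in dcKO, and the shallow class 17.51% and 19.8%. The highest share was that of dcKO 3, which had the fewest peaks, and the lowest that of dcKO 2. The remaining peaks lay in gene bodies (24.2% in control and 24.1% in dcKO) or between genes.

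The X share varied widely within each genotype. It held 3.05%, 13.1%, 7.91% and 0.79% of the peaks in controls 1 to 4 and 3.29%, 7.36%, 0.72% and 8.32% in dcKO 1 to 4, with means of 6.21 ± 5.47% (SD, n = 4) and 4.92 ± 3.55% (SD, n = 4; two-sided exact permutation test, p = 0.714). In the deep class, 66 and 48 X peaks in control 4 and dcKO 3 stood against 1746 and 3826 in control 2 and dcKO 4. Of 948 X-linked coding genes, 35 and 30 were marked in the first pair and 193 and 479 in the second. The Y chromosome had peaks in all 4 shallow libraries (878 and 73 in control, 389 and 47 in dcKO) and in dcKO 4 (82), and none in the other deep libraries. The X share split control from control and dcKO from dcKO, and what it goes with was not tested. For the 7 measures of peak number, covered length, width, wide share, fold, promoter share and X share, each Benjamini-Hochberg adjusted p was 1, the values of the genotypes overlapped, and the smallest p that 4 libraries against 4 can give is 0.029. Within a class, an exact permutation test of 2 libraries against 2 cannot pass 0.05.

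**Figure D1:**
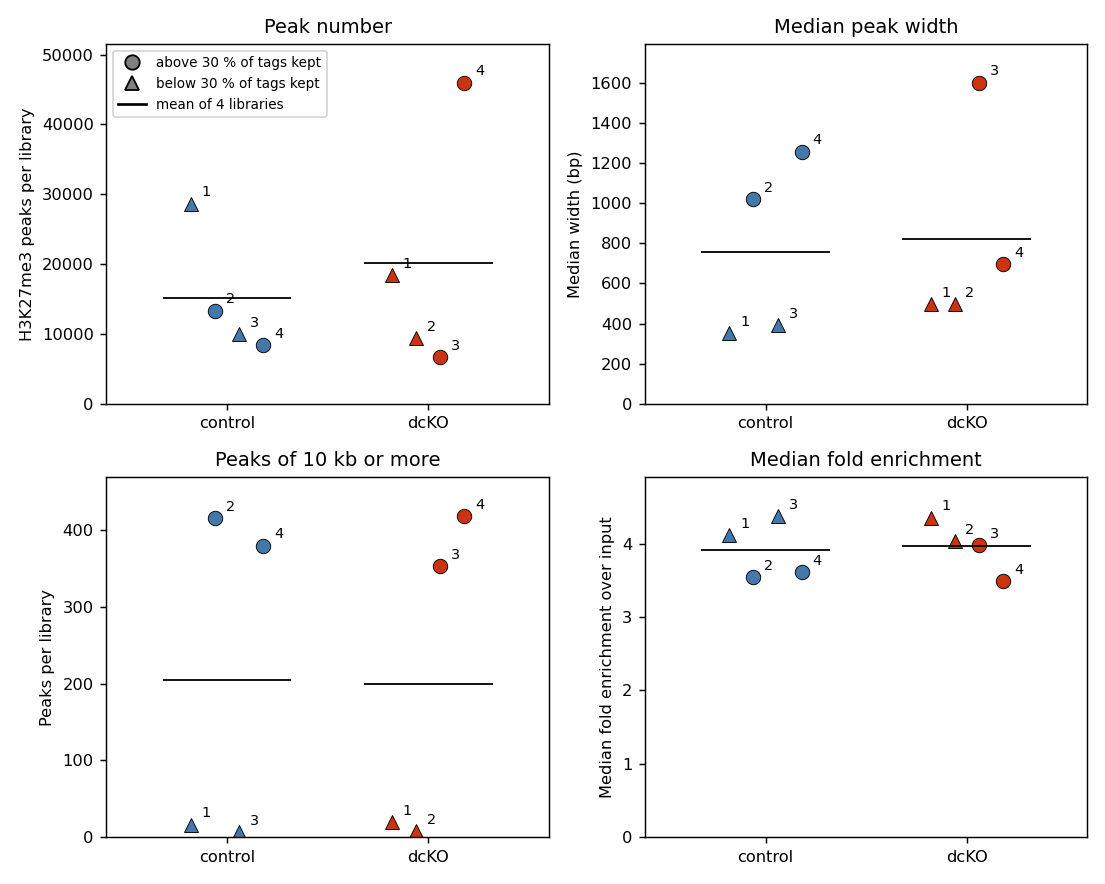
Whole-library measures of the H3K27me3 peak lists, with 1 point per library, grouped by genotype and marked by class of tags kept. Deep libraries stand above shallow ones in median width (698 to 1602.5 bp against 351 to 497 bp), while the genotypes overlap in every panel.

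Merging peaks that shared a base gave 75406 regions, most of them private to a library. A single library held 53186 of them (70.5%), with a median length of 395 bp and 9.39% at a coding promoter. In all 8 libraries, 1046 regions (1.39%) had a peak. These had a median length of 8957.5 bp, covered 13.9 Mb and lay at a promoter in 71.1% of cases. Their observed over expected CpG ratio had a median of 0.37, against 0.20 for regions of 1 library and 0.19 for the genome. In these 1046 regions the median of the highest fold was 8.499, 4.78, 5.58 and 4.56 in controls 1 to 4 and 8.86, 5.34, 4.92 and 8.08 in dcKO 1 to 4. The part of such a region that was covered had a median of 82.2% and 77.1% in the deep controls, 74.1% and 87.3% in the deep dcKO libraries, 29.5% and 10.6% in the shallow controls and 30.6% and 13.2% in the shallow dcKO libraries.

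Overlap between libraries followed the class more than the genotype. Libraries of the same class but different genotype shared on average 26.8% of their joint regions (range 11.98% to 55.9% over 8 pairs), and libraries of the same class and genotype 23.7% (12.5% to 46.3% over 4 pairs). Across classes the mean was 13.4% for different genotypes and 13.3% for the same genotype, over 8 pairs each. The closest pair was control 4 and dcKO 3, which also had like depth. Pairs share libraries and are given as a description.

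The 4 Hox clusters, which encode the transcription factors that set position along the body axis and are silent in the forebrain, were the 4 widest regions marked in all 8 libraries. In deep libraries 86.9% to 100% of each cluster was covered, in 11, 11, 12 and 20 pieces over the 4 clusters in control 2, control 4, dcKO 3 and dcKO 4. HoxC was 1 unbroken domain of 177, 181 and 179 kb in the first 3 of these, and its longest piece in dcKO 4 was 99.9 kb. In shallow libraries 17.2% to 61.6% was covered, in 123 and 102 pieces in controls 1 and 3 and 94 and 98 pieces in dcKO 1 and 2. The widest Hox piece in a shallow library was 15.9 kb, while the widest peak of each shallow library was 87.3 to 87.5 kb. Coverage thus fell into separate ranges by class, and within each class the genotypes overlapped. Hox start sites were marked at 39 of 39 genes in all libraries except control 3 (36) and dcKO 2 (30). Over the 39 genes the median dcKO minus control difference in log2 fold was 0.11, with 0.31 in the deep and -0.18 in the shallow class, beside 0.19, 0.51 and 0 over all 5527 coding genes tested. The Hox median turned to -0.033 without control 3 and -0.074 without dcKO 4, and was 0.28 without dcKO 2. Hoxd3, a gene of the anterior HoxD cluster, had a highest fold of 10.1, 6.90, 11.3 and 6.34 in controls 1 to 4 and 14.3, 16.1, 6.78 and 10.8 in dcKO 1 to 4 (log2 difference 0.44, SE 0.35, adjusted p = 1 in limma). Its genotypes overlapped.

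**Figure D2:**
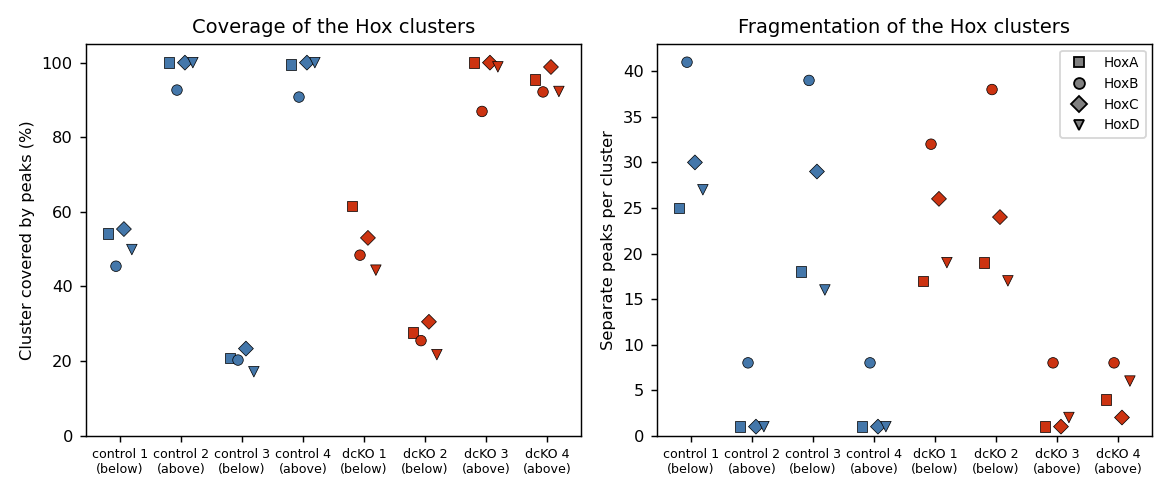
Percent of each Hox cluster covered by H3K27me3 peaks, by library and class of tags kept. Deep libraries of both genotypes cover 86.9% to 100%, shallow ones 17.2% to 61.6%.

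Start sites of developmental regulators were marked often, and those of housekeeping and cell cycle genes rarely, in libraries of both genotypes. Of 21866 coding genes, 4641, 3862, 1494 and 3169 were marked in controls 1 to 4 (21.2%, 17.7%, 6.83% and 14.5%) and 4284, 1225, 3293 and 7701 in dcKO 1 to 4 (19.6%, 5.60%, 15.1% and 35.2%). In all 8 libraries 629 genes (2.88%) were marked and in none 13253. Of 70 transcription factors of other body regions, such as the Pax, Gata and Lhx genes of hindbrain, spinal cord and trunk, 47 were marked in all 8. Gata2, which directs blood and brainstem neuron fates, had a fold of 14.5, 6.45, 8.47 and 5.91 in controls 1 to 4 and 22.6, 9.81, 6.45 and 12.2 in dcKO 1 to 4 (log2 difference 0.47, SE 0.35, adjusted p = 1 in limma). The ranges overlapped. The list median was 0.21 (0.041 without dcKO 4, 0.043 without control 3, 0.047 without dcKO 1 and 0.36 without dcKO 2). It was 0.38 in the deep and -0.00093 in the shallow class. Of 69 tested members, 34 (49.3%) had a higher mean in dcKO in both classes, beside 36.8% of all genes tested. A gene with no peak in a class cannot count there, and these factors were marked more often than other genes. That background is thus unlike the list.

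Of 23 genes of the ventral telencephalon and of interneurons, which the pallium keeps silent in its own lineage, 13 were marked in all 8 libraries. Their median difference was 0.09, with 0.33 in the deep and -0.17 in the shallow class. It turned to -0.046 without control 3, -0.016 without dcKO 1 and -0.083 without dcKO 4, and was 0.29 without control 1 and 0.28 without dcKO 2. Lhx6, a factor of interneurons born in the medial ganglionic eminence, had a fold of 11.3, 5.86, 7.54 and 5.50 in controls 1 to 4 and 8.78, 7.64, 5.95 and 8.73 in dcKO 1 to 4, which overlap.

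Genes of the pallium itself were marked less often. Of 40 genes of pallial progenitors and projection neurons, 4 were marked in all 8 libraries and 7 in none. The 4 were Eomes, Prox1, Pax6 and Emx2. Eomes, which marks intermediate progenitors, had a fold of 14.9, 5.15, 5.34 and 4.35 in controls 1 to 4 and 12.8, 3.98, 5.48 and 7.68 in dcKO 1 to 4 (log2 difference 0.07, SE 0.56, adjusted p = 1 in limma). Pax6, a regulator of radial glia, had 8.75, 5.20, 5.79 and 4.60 in control and 7.23, 4.61, 5.31 and 8.59 in dcKO (log2 difference 0.08, SE 0.62, adjusted p = 1 in limma). Neither gene separated the genotypes. Cux2, an upper layer neuron factor, was marked in all 4 controls (8.26, 3.57, 5.38 and 3.59) and in dcKO 1 and 4 (8.40 and 5.76). In the deep class, 52.5% of these 40 genes were marked in control and 65.0% in dcKO on average, and in the shallow class 43.8% and 33.8%. The deep dcKO libraries marked 19 (dcKO 3) and 33 (dcKO 4) of them and the deep controls 23 and 19, so the higher dcKO mean came from dcKO 4.

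Wnt ligands, the secreted signals of this pathway, were nearly all marked in deep libraries (18 or 19 of 19), and 6 of 19 in all 8 libraries. Wnt2 was marked in 3 controls (4.27, 3.93 and 3.68 in replicates 1, 2 and 4) and all dcKO libraries (5.67, 5.38, 4.33 and 8.11), so the genotypes did not overlap by a small margin, and the fit did not call it (log2 difference 1.03, SE 0.90, unadjusted p = 0.251, adjusted p = 1 in limma). Such a separation in the same direction was seen at 20 of 5527 genes (0.362%). Of 14 secreted Wnt antagonists, 1 was marked in all 8, Dkk1. Dkk2 was marked in all 4 controls (4.25, 4.28, 3.34 and 4.48) and in the deep dcKO libraries (5.03 and 7.61), and had no peak in the shallow dcKO libraries. The list had a median difference of -0.29, with 0.35 in the deep and -0.13 in the shallow class. It turned to 0.12 without control 1 and 0.46 without dcKO 2, and was -0.58 without dcKO 4 and -0.027 without dcKO 1.

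Cell cycle and housekeeping genes carried few peaks. Of 30 cell cycle genes, 26 were marked in no library and none in all 8, and of 30 housekeeping genes 23 and none. The dcKO 4 library marked 6 housekeeping genes, more than any other library (0 to 2). Of 5 markers each of endothelial cells, microglia and meninges and 7 of choroid plexus, which whole tissue may hold, 1, 0, 2 and 2 were marked in all 8, and no member was called. Microglia markers were at 0 of 5 in all controls and at 1, 0, 0 and 3 of 5 in dcKO 1 to 4. The part of these cells in the results was not tested. Fewer cells with a mark and less of it per cell cannot be told apart in whole pallium.

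For the 109 neurogenesis genes that the study lists as lower in RNA, 46, 38, 11 and 31 were marked in controls 1 to 4 and 47, 13, 35 and 75 in dcKO 1 to 4. The share in the deep class was 31.7% in control and 50.5% in dcKO, and in the shallow class 26.1% and 27.5%, beside 16.1% and 25.1%, and 14.03% and 12.6%, over all coding genes. Of 58 tested, 23 (39.7%) had a higher mean in dcKO in both classes and 1 a lower one, beside 36.8% and 2.06% of all genes. Kcnip2, which encodes a subunit of potassium channels, was marked in dcKO 1, 2 and 4 (4.58, 4.46 and 5.22) and in no control (log2 difference 1.68, SE 0.85, unadjusted p = 0.0474, adjusted p = 1 in limma). Grin2a, an NMDA receptor subunit, had 7.68, 4.60, 6.32 and 3.604 in control and 12.1, 7.52, 4.99 and 9.91 in dcKO, with overlap. The 82 neurogenesis genes the study lists as higher in H3K27me3 were chosen on these same libraries and are not independent evidence. Of them, 47, 35, 13 and 29 were marked in controls 1 to 4 and 54, 9, 33 and 79 in dcKO 1 to 4, so that the excess stood in dcKO 4 and, by a smaller count, in dcKO 1.

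Of the 4 loci that the study displays, control 1 and dcKO 1 of the shallow class marked 3 and 4 at the start site. Etv5, a factor downstream of fibroblast growth factor signals, was marked in control 2 (3.48) and in dcKO 1, 3 and 4 (7.54, 3.74 and 4.23). Sema3f, a repulsive axon guidance signal, was marked in control 1 (4.27) and in dcKO 1, 3 and 4 (3.75, 3.69 and 4.70). Slc9a3r1, a scaffold under the cell membrane, was marked in controls 1, 2 and 4 (4.81, 4.998 and 4.58) and in dcKO 1, 3 and 4 (4.25, 4.92 and 9.41). Unc5a, a netrin receptor, was marked in the same 6 libraries (3.41, 4.10 and 3.65, and 6.69, 3.68 and 3.999). No start site of these was called (unadjusted p between 0.151 and 0.818 in limma), and control 3 and dcKO 2 marked none of them.

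**Figure D3:**
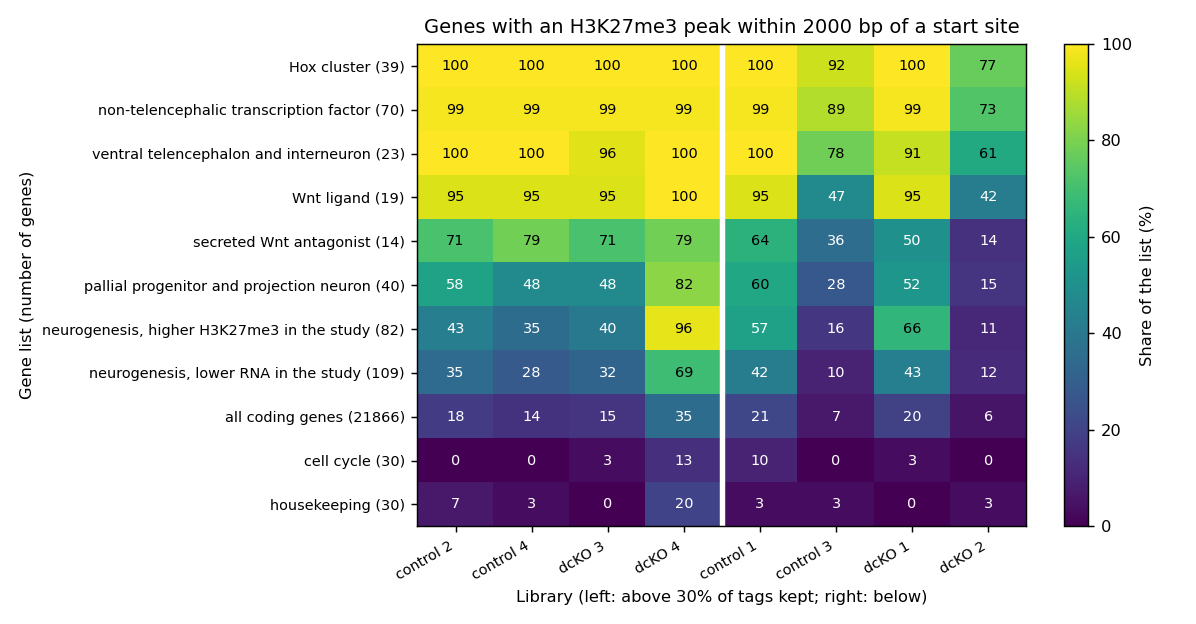
Percent of the members of each gene list with an H3K27me3 peak within 2000 bp of a start site, by library. Hox genes are marked at 76.9% to 100% and housekeeping genes at 6 of 30 or fewer. The lowest share is that of dcKO 2 for Hox genes, factors of other body regions, and ventral telencephalon and interneuron genes.

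In the fit over all start sites, 2 of 5527 genes (0.0362%) were higher in dcKO and 0 were lower, at an unadjusted p under 0.01, and none at an adjusted p under 0.05 in limma. At an unadjusted p under 0.05 there were 12 higher and 0 lower. The 2 genes were Fcgr3 and Prmt8. Fcgr3, an Fc receptor of phagocytes, lies in a region of chromosome 1 with among the highest folds of all, chr1:171063032-171086400. Its values were 17.1, 7.58, 9.495 and 6.65 in controls 1 to 4 and 25.6, 10.3, 12.9 and 34.7 in dcKO 1 to 4 (log2 difference 0.96, SE 0.25, unadjusted p = 9.13e-05, adjusted p = 0.504 in limma). In the fit over regions the same values had an SE of 0.41 (unadjusted p = 0.0193 in limma), and the region was not called. The call of the start site was lost in 9 of 16 alternatives. With the pileup in place of the fold, the difference was 0.0062 (unadjusted p = 0.988 in limma). Without dcKO 1 it was 0.80, without dcKO 4 it was 0.66 and without control 1 it was 1.24 (unadjusted p = 0.186, 0.0401 and 0.0567 in limma). Both deep dcKO libraries were above both deep controls, and the shallow libraries of the genotypes overlapped. The mean was higher in dcKO at 4084 of the 5527 genes, with a median log2 difference of 0.19. This lean was 0.51 in the deep class and 0 in the shallow class. With 1 library left out it ranged from -0.09 (without control 3) to 0.58 (without dcKO 2). It was -0.03 without dcKO 4 and 0.47 without control 1. Higher in both classes were 2034 genes (36.8%) and lower in both 114 (2.06%).

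Regions were tested where at least 2 libraries had a peak. Of these 22220, 2 were higher (0.009%) and 0 lower at the same limit, and an unadjusted p under 0.05 was reached by 44 that were higher (0.198%) and 5 that were lower (0.0225%). The called region beside that of Prmt8 was chr2:20899653-20900404, 752 bp in an intron of Arhgap21, a regulator of small GTPases. It had 10.7, 3.89, 4.78 and 3.30 in controls 1 to 4 and 29.2, 7.46, 10.1 and 27.6 in dcKO 1 to 4 (log2 difference 1.63, SE 0.52, unadjusted p = 0.00163, adjusted p = 1 in limma). Control 1 lay above dcKO 2 and 3. The call was lost in 7 of 16 alternatives. By the pileup the difference was 0.056 (unadjusted p = 0.936, adjusted p = 1 in limma). It was 1.42 without control 4 and 1.36 without dcKO 4. Without control 1 the difference was 1.99 (unadjusted p = 8.68e-07 in limma), and 1 region then passed an adjusted p under 0.05. A higher mean in both classes was seen at 4968 regions (22.4%) and a lower one at 594 (2.67%). Values that did not overlap between genotypes were seen at 40 regions higher in dcKO (0.18%) and 7 lower (0.0315%).

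Prmt8, a membrane-bound arginine methyltransferase of neurons, was marked in dcKO libraries alone. Its region chr6:127765389-127772018 holds the first exon with coding and untranslated sequence, the start of the gene and an exon of the antisense gene Gm42738. Its highest fold was 8.32, 5.96, 3.92 and 5.73 in dcKO 1 to 4, and no control library had a peak there. The log2 difference was 2.53 (SE 0.90, unadjusted p = 0.00514, adjusted p = 1 in limma), with 2.25 in the deep and 2.82 in the shallow class. With values centred on the library median it was 0.44 (0.17 at the start site; unadjusted p = 0.0632 and 0.374 in limma). Without dcKO 4 the peaks were merged anew, and the new region with the most overlap had 1.36 (unadjusted p = 0.116 in limma). At the start site, with any 1 library left out, the difference lay between 2.36 and 2.72. The call of the region was lost in 10 of 16 alternatives. Of coding genes, 2 (0.00915%) had a peak in all 4 dcKO libraries and no control library, Prmt8 and the predicted gene Gm4981 (4.40, 5.70, 2.33 and 3.10 in dcKO 1 to 4), and 0 the reverse. The region holds 265 CpG in 6630 bp, an observed over expected ratio of 0.52.

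In all, 6 regions (0.027%) had a peak in all 4 dcKO libraries and in no control library, and 4 (0.018%) the reverse. Beside Prmt8, the first group held chr15:72567209-72568894, between genes and 20869 bp from the start of the potassium channel gene Kcnk9 (4.64, 6.15, 3.73 and 5.64 in dcKO 1 to 4). It held chr8:84912258-84914473, over exons of Mast1, a microtubule-associated kinase, and Dnase2a, a lysosomal nuclease (3.81, 3.48, 4.11 and 6.28). It held chr1:72223833-72226245, over the small nuclear RNA gene Gm25360 (3.81, 5.01, 3.73 and 4.47). It held chr7:128185870-128189212, over exons of the integrin gene Itgad (3.25, 3.76, 3.34 and 4.55), and chr1:90597748-90599969, between genes and 3012 bp from Cops8 (3.32, 4.11, 3.52 and 3.82). For scale, 5% of all peaks of dcKO 1 to 4 had a fold under 3.27, 3.11, 3.44 and 3.01.

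The first of the 4 control regions was chr11:55200650-55201834, between genes and 2516 bp from Slc36a1 (5.80, 3.43, 4.67 and 3.17 in controls 1 to 4). Another was chr13:111990900-111992543, over an exon of the noncoding gene Gm15322 (3.86, 3.24, 4.62 and 3.59). The others were chr8:84316621-84317707, between genes (5.33, 3.55, 3.84 and 3.34), and chr9:116912217-116914369 in an intron of Rbms3 (3.46, 3.43, 5.11 and 3.28). None touched a coding start site. The median CpG ratio was 0.39 in the dcKO group and 0.14 in the control group, and the ranges overlapped (0.12 to 0.58 and 0.072 to 0.23).

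**Figure D4:**
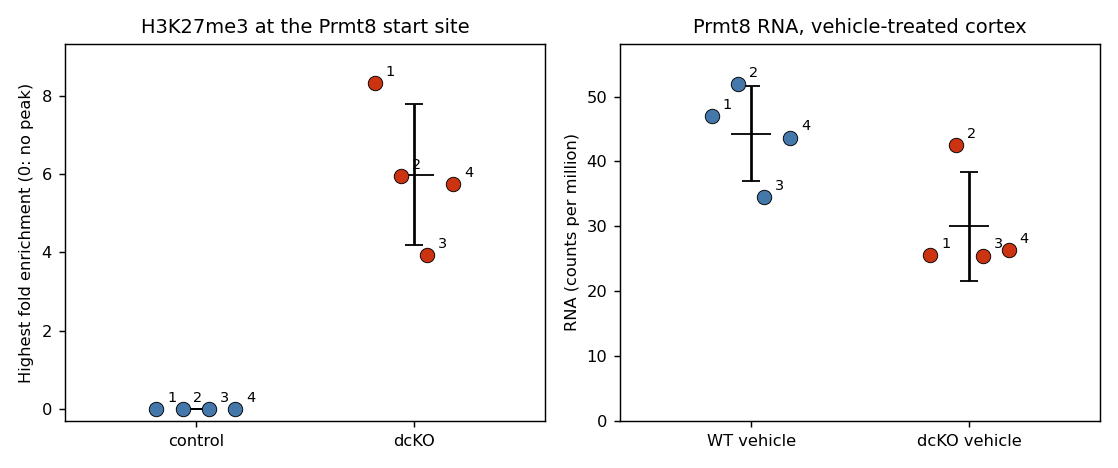
H3K27me3 at the Prmt8 start site (left) and Prmt8 RNA (right), 1 point per library. All 4 dcKO libraries have a peak of 3.92 to 8.32 fold and no control has one, and RNA is 34.6 to 51.9 CPM in WT and 25.5 to 42.5 CPM in dcKO.

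Regions found in 1 genotype alone were more numerous within each class. Of 48488 regions of the deep class, 464 had a peak in both dcKO and neither control library, and 473 the reverse. Of the first, 41.2% lay at a coding promoter, with a median CpG ratio of 0.35, and of the second 6.13%, with 0.16. Among all regions of the deep class it was 18.9%, with 0.24. A dcKO region here had to have a peak in dcKO 3, of whose peaks 49.6% lay at a promoter. A control region had to lack a peak in dcKO 4, which had 46000 peaks. Of the 48488 regions, 44099 had a peak in dcKO 4. The median length was 1941.5 bp for the dcKO regions, 1282 bp for the control regions and 769 bp for all regions of the class. In the shallow class there were 667 and 1293 such regions of 38252, with 7.80% and 5.26% at a promoter and CpG ratios of 0.33 and 0.10. Among all regions of the shallow class it was 15.2%, with 0.24. Of coding genes, 170 (0.777%) were marked in both deep dcKO and neither deep control library, and 8 (0.0366%) the reverse. In the shallow class it was 43 (0.197%) and 55 (0.252%). The promoter share of dcKO regions was thus above that of control regions and of all regions in the deep class. In the shallow class both were below the share of all regions, with dcKO above control by a small margin. The numbers of genes had opposite order in the shallow class. Between classes, 6 of the 464 and 667 regions coincided, and 4 of the 473 and 1293. The opposite pattern in the shallow class was held by 2 of the 464 and 3 of the 473.

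In the pairs of libraries of 1 class that were compared, the CpG ratio had the same order. Between control 4 and dcKO 3, which kept 28335352 and 25035817 tags, 2537 regions were found in control 4 alone, with 13.7% at a promoter and a CpG ratio of 0.20. In dcKO 3 alone there were 1182, with 38.4% and 0.33. Between control 1 and dcKO 1 it was 15241 regions with 8.10% and 0.13, and 5772 with 13.8% and 0.35. Between control 3 and dcKO 2 it was 5732 regions with 11.5% and 0.19, and 5056 with 9.51% and 0.24, so the promoter share had the other order there. The CpG ratio was higher on the dcKO side in each of the 6 pairs compared, of 8 such pairs within the classes. Control 1 with dcKO 2 and control 3 with dcKO 1 were not compared. The pairs share libraries and the pooled inputs. A difference in base composition between the inputs, the libraries or the genotypes cannot be told apart in these lists.

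**Figure D5:**
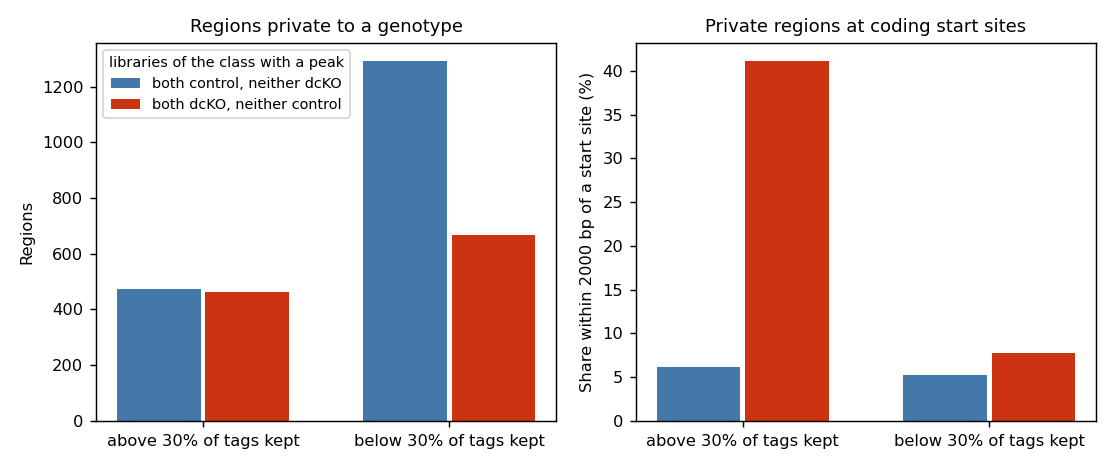
Regions with a peak in both libraries of 1 genotype and neither of the other, within each class, by number and promoter share. In the deep class 464 dcKO regions lie at promoters in 41.2% of cases and 473 control regions in 6.13%, beside 18.9% of all 48488 regions. Each of these dcKO regions has a peak in dcKO 3, of whose peaks 49.6% lie at promoters.

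RNA was set beside these lists from 4 WT vehicle and 4 dcKO vehicle cortices at E17.5, which are other animals with an injection. The 4 dcKO cortices given a Wnt inhibitor entered the fit for the estimate of spread. Smarcc1 stood at 245, 266, 299 and 256 CPM in WT 1 to 4 and at 136, 242, 133 and 138 CPM in dcKO 1 to 4, and Smarcc2 at 834, 716, 664 and 711 CPM and at 439, 692, 425 and 435 CPM. The library labelled dcKO vehicle replicate 2 was thus at the level of WT for both deleted genes, and values are given with and without it. With all libraries, edgeR's quasi-likelihood test called 1 of 16372 genes higher (0.00611%) and 0 lower in dcKO at an adjusted p under 0.05, with 677 and 872 at an unadjusted p under 0.05 and 84 and 34 by DESeq2. Without it, 222 (1.34%) were higher and 340 (2.06%) lower.

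Prmt8 RNA was 47.1, 51.9, 34.6 and 43.7 CPM in WT 1 to 4 and 25.6, 42.5, 25.5 and 26.4 CPM in the libraries labelled dcKO 1 to 4. Replicate 2 stood within the WT range and the others below it. The log2 difference was -0.56 (SE 0.23, adjusted p = 0.455 in edgeR), and -0.78 (SE 0.22, adjusted p = 0.0776 in edgeR) without that library. Of the displayed loci, Etv5 and Slc9a3r1 fell without it (log2 difference -0.72 and -1.28, adjusted p = 0.00557 and 0.0043 in edgeR), and with it had -0.42 and -0.85 (adjusted p = 0.511 and 0.337 in edgeR). Sema3f and Unc5a had -0.02 and -0.29 without it (adjusted p = 0.99 and 0.59 in edgeR). The writers Ezh2, Eed and Suz12 and the erasers Kdm6a and Kdm6b differed by -0.01, 0.00, 0.05, -0.11 and 0.17 without it, and none was called.

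Of genes with a start site marked in all 8 libraries, 25 of 402 tested (6.22%) were higher and 12 (2.99%) lower in RNA without that library, beside 1.34% and 2.06% of all genes. Of genes whose H3K27me3 mean was higher in dcKO in both classes, 43 of 1598 (2.69%) were higher and 79 (4.94%) lower, and of those lower in both classes 4 and 3 of 92 (4.35% and 3.26%). Genes marked in no library had 0.68% higher and 0.98% lower. The groups by H3K27me3 direction hold only genes marked in 2 or more libraries, so the shares over all genes are an unlike background for them. The Hox genes had too few reads for the fit (0 of 39 tested).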

How the data were processed

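The authors mapped H3K27me3 ChIP-seq reads to mm10 with STAR, removed duplicates down to 1 tag a position, and ran broad peak calling per library with MACS2 (version 2.1.0.20140616 per the file headers, q-value limit 0.1), scaling the larger of library and pooled input to the smaller. The deposited lists give, as made by the authors, the pileup signal, the fold enrichment ratio and the -log10 of the q-value of each peak, and the authors' deposited RNA tables give raw counts per gene. From these, peaks were merged where they shared 1 bp, and the value of a library was the log2 of its highest fold in a region or within 2000 bp of a GENCODE M21 coding start site, with 1 where it had no peak. Features marked in 2 or more libraries were fitted with limma 3.58.1 (trend, robust), and calls are at an unadjusted p under 0.01. Whole-library measures were compared by two-sided exact permutation tests. RNA was fitted with edgeR 4.0.16 (TMM, quasi-likelihood) on the 12 treated libraries, 4 of them dcKO with a Wnt inhibitor (12514443 to 26600594 counts), with DESeq2 1.42.0 as an alternative, and the scripts were tested on simulated data. R 4.3.3 and Python 3.11.15 were used. Genes named were the regions found in all 4 libraries of 1 genotype only, the 5 smallest p per direction, the widest and highest regions, up to 5 list members by mean fold with those of largest difference, the deleted genes and the loci the study displays. Genes whose genotypes do not overlap were added after their values were seen. The members and lists were chosen with earlier results of these data known. The 7 untreated RNA libraries and the authors' comparison tables were not used here. Sequence and CpG counts were read from GRCm38.p6, the build of mm10, and promoters from RefSeq, matched for 16531 of 21866 coding genes.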

Additional observations from a re-analysis of the deposited data

Results flagged for a closer look

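A sample was listed here where, within a group of 4, its gap to the nearest other sample divided by the range of the group exceeded Dixon's critical value, which chance gives in about 1 of 20 groups. Among the dcKO libraries, the share of peaks of 10 kb or more stood apart in dcKO 3, at 5.29%, against 0.085% to 0.91% in the others. In the RNA, the library labelled dcKO vehicle replicate 2 stood apart from the other dcKO vehicle libraries in Smarcc1 (242 CPM against 133 to 138), in Smarcc2 (692 CPM against 425 to 439) and in Prmt8 (42.5 CPM against 25.5 to 26.4). In each of these 3 genes it lay nearer to the WT vehicle libraries than to its own group.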

How the results depend on the processing

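The dcKO minus control differences of whole-library measures kept a p above 0.05 under every alternative. With 1 library left out the exact permutation test cannot pass 0.05, and with the replicate number as a block it cannot go below 0.125. Those settings thus show only the size and sign of the difference. They turned in sign with peaks of q under 0.01 for median width (-479 bp), promoter share (-4.71 percentage points) and X share (0.61), with peaks under 3000 bp apart joined for median width (-45.3 bp) and promoter share (-0.32), and without the pseudocount for median fold (-1.22). With single libraries left out, the difference ranged from -3595 to 9558 peaks (negative without dcKO 4), -4.53 to 12.6 Mb, -192 to 235 bp in median width, -1.58 to 0.52 points in the share of 10 kb peaks, -0.078 to 0.21 in median fold, -6.52 to 5.21 points in promoter share and -3.10 to 1.01 points in X share.

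Regions at an unadjusted p under 0.01 were, higher and lower in dcKO, 10 and 15 with centred values, 7 and 4 with the class as a block, 7 and 4 with the replicate number as a block, and 13 and 3 with the pileup. Higher regions were 5 with a peak in at least 3 libraries, 0 without the pseudocount and 1 at q under 0.01. Leaving out a library gave 0 to 19 higher (19 without control 1, 0 without control 4 or dcKO 4) and 0 to 1 lower. Start sites were 4 higher and 2 lower with centred values, and 1 higher without the pseudocount, 5 with the pileup, 1 at q under 0.01 and 0 with a window of 500 bp. Leaving out a library gave 0 to 9 higher (9 without control 1, 0 without dcKO 1) and 0 to 0 lower. The regions of Prmt8 and Arhgap21 and the start site of Fcgr3 lost their calls in 10, 7 and 9 of 16 alternatives and kept their direction. The median difference of the Hox genes turned with centred values (-0.023), without the pseudocount (-0.039) and with the pileup (-0.084), and that of the ventral and interneuron genes with these (-0.017, -0.026 and -0.096) and with the window of 500 bp (-0.094). The other lists given by a median turned with the pileup for factors of other body regions (-0.030), and with centred values, q under 0.01 and the window of 500 bp for secreted Wnt antagonists (0.045, 0.048 and 0.060). Over all coding genes tested it was -0.0081 with centred values.

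Centring subtracts the library median from marked features alone, so weak peaks fall below the value of no peak. It turned chr1:72223833-72226245 (-0.014), chr1:90597748-90599969 (-0.21), chr13:111990900-111992543 (0.11), chr7:128185870-128189212 (-0.21), chr8:84316621-84317707 (0.059), chr9:116912217-116914369 (0.13), Gm4981 (-0.48), Spopl (0.060), Vmn1r21 (0.018), Olfr552 (0.044), Etv5 (-0.024) and Sema3f (-0.20). Cyp4f14 turned with the window of 500 bp (0.082). With a library left out, Slc9a3r1 ranged from -0.36 to 0.85 and Unc5a from -0.24 to 0.79 in H3K27me3, and Sema3f from -0.14 to 0.18 in RNA.

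RNA calls, higher and lower, were 84 and 34 with DESeq2 and 4 and 1 with the replicate block, and 0 higher with only the 8 libraries compared, without the low-count filter or with DESeq2 size factors. Leaving out a library gave 0 to 222 higher and 0 to 340 lower, with both highest counts without dcKO vehicle replicate 2. The replicate numbers do not pair the samples. Same-numbered H3K27me3 libraries deviated from their group means with correlations of 0.58, -0.24, -0.32 and 0.31, and RNA libraries with 0.38, 0.03, -0.01 and -0.01. Depth limits weak signal: a region without a peak was set to no enrichment.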

Other observations

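Peaks by expression of the gene in the 4 WT vehicle cortices were most frequent among weakly expressed genes. Coding genes with detected RNA were split into 5 tiers of 3453 or 3454 genes. In tier 2, with a median of 2.68 CPM, 37.4% and 32.6% had a marked start site in the deep controls and 34.4% and 59.1% in the deep dcKO libraries. In tier 5, with a median of 146 CPM, it was 8.80% and 6.14%, and 6.60% and 23.3%. The shallow libraries fell over the same tiers, from 39.9% and 12.6% to 14.3% and 3.47% in control and from 36.8% and 10.02% to 14.04% and 2.46% in dcKO. Genes without detected RNA were marked less often than tier 2 in every library. Genes marked in all 8 libraries had a median of 0.98 CPM and genes marked in none 10.9 CPM.

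Among gene families that were not on the lists above, potassium channel genes (Kcn) were often marked in deep libraries, at 49 and 47 of 94 in control and 47 and 80 in dcKO, and 10 of them in all 8 libraries. Olfactory receptor genes were rarely marked, with 64, 28, 19 and 15 of 1134 in controls 1 to 4 and 31, 18, 15 and 114 in dcKO 1 to 4. The clustered protocadherins, which give neurons their surface identity, were marked at 18, 21, 0 and 6 of 57 genes in controls 1 to 4 and at 13, 1, 4 and 54 in dcKO 1 to 4, so dcKO 4 alone marked nearly the whole family. RefSeq promoters of genes marked in all 8 libraries held a median of 18 CpG in 300 bases, and those of genes marked in none 14.

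Some regions with a very high fold held no coding start site. An array of ribosomal RNA genes at chr8:123537089-123624638 had 27.1, 6.07, 13.8 and 5.35 in controls 1 to 4 and 28.2, 16.8, 5.74 and 23.3 in dcKO 1 to 4. At chr8:12129941-12136312, between genes, it was 42.0, 4.12, 21.7 and 3.74, and 40.9, 21.98, 4.10 and 9.03. The order of libraries there followed the class, with the shallow libraries above most of the deep ones, and the genotypes overlapped.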
